A study of Drosophila melanogaster with 3 samples.

Results

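The core circadian clock of Drosophila melanogaster is described here through 8 genes: per, tim, Clk, cyc, vri, Pdp1, cwo and cry. They were examined in a map of chromatin bound by Eagle, the product of eg, an orphan nuclear receptor related to knirps and known from the development of serotonergic neurons. A peak was assigned to a gene when its summit, the position of highest enrichment, lay in the gene body or within 5 kb of either end. This gave 39 of the 9369 peaks used, for 8 of 13945 protein-coding genes. The material was 3 biological replicates of 1 group, whole prepupae with a labelled age of 2 days of the strain eg-GFP that carried eg-eGFP, an Eagle fusion to green fluorescent protein. Chromatin was precipitated with an antibody to the tag and sequenced (ChIP-seq). There was no second condition, so every value below is a description and no test was run. Whole animals were used, and the peaks do not tell in which cells a site was bound. The authors deposited ranked lists, which hold all peaks, and thresholded lists, which hold those whose ranks agreed well enough by the irreproducible discovery rate (IDR). They call 1 thresholded list of the series conservative, and it is the list of peaks used here unless another is named. The thresholded lists of replicates 1, 2 and 3 held 6215, 6024 and 7476 peaks.

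In the clock, the paired transcription factors CLK and CYC bind E-boxes, short DNA elements with the core CACGTG, and activate per and tim. The PER and TIM proteins accumulate and repress their own activators. CLK and CYC also activate vri and Pdp1, which form a second loop on Clk: the VRI protein represses Clk and the PDP1 protein activates it. The CWO protein is a repressor that binds E-boxes, and the CRY protein is a blue light photoreceptor that acts on TIM. All of this is background, and none of it was measured here.

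Eagle peaks were spread unevenly over the clock. The second loop held 30 of the 39 peaks (76.9%), with 18 at Pdp1 and 12 at vri. The other 6 genes shared 9: cwo had 4, tim 3, and cyc and cry 1 each, while per and Clk had none. The authors' signal value, a peak strength with no physical unit, reached 666 in the Pdp1 window, 425 at vri and 217 at cry. It is not comparable between the series lists and the lists of the replicates. At tim, cyc and cwo no peak exceeded 159. The map of all 8 loci shows this distribution.

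**Figure D1:**
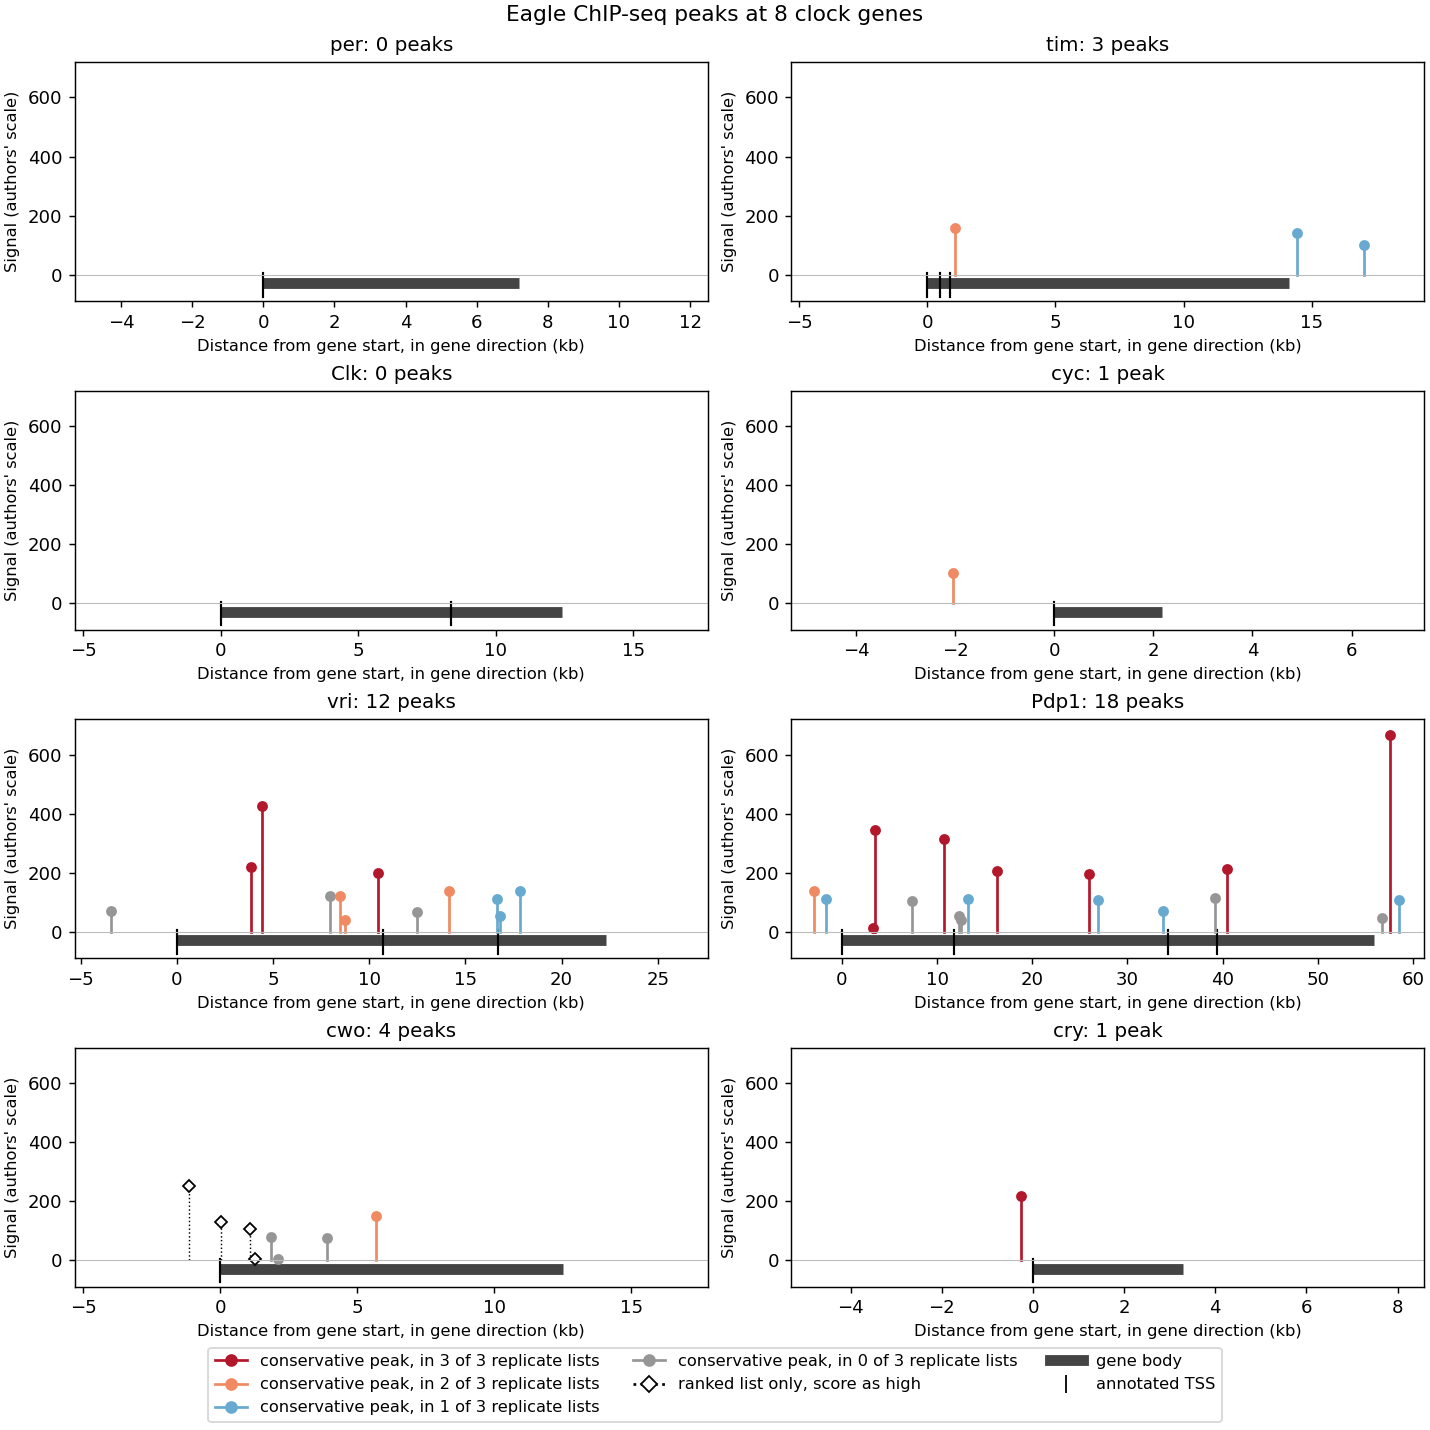
Each panel is 1 clock gene, with distance from the gene start in kb on the x axis, in the direction of transcription, and the authors' signal in the series list on the y axis. Filled points are the 39 conservative peaks, coloured by the number of replicate lists that overlap them, open diamonds are peaks of the ranked list with a score as high that the conservative list does not hold, dark bars are gene bodies and ticks are annotated start sites. The per and Clk panels hold no peak, and the highest point, at 666, lies beyond the end of Pdp1.

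The sequences under some of the summits on which the description rests are shown first. Each is the reference base at the summit with 50 bases on either side, read on the strand of the clock gene. The set holds the summits of vri peaks 2, 3 and 7, the 2 strongest intronic summits of Pdp1 and the single summit of cry. It also holds the upstream summit of cwo that is in the ranked list only. Pdp1 peak 17 had the highest signal (666) but lies at the neighbouring gene CG32369 and is not shown. Capitals mark a match to 1 of the 9 motifs searched, and only vri peak 2 holds one, TATTTAT read on the opposite strand.
vri peak 3, dm6 chr2L:5293322-5293422, forward strand: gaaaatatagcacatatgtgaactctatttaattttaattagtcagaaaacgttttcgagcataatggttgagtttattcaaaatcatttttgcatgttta
vri peak 2, dm6 chr2L:5292729-5292829, forward strand: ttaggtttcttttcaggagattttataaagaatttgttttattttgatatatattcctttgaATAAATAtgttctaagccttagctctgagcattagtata
vri peak 7, dm6 chr2L:5299372-5299472, forward strand: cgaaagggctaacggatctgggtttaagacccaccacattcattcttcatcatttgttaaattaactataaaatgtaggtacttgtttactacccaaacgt
Pdp1 peak 4, dm6 chr3L:7863819-7863919, reverse strand: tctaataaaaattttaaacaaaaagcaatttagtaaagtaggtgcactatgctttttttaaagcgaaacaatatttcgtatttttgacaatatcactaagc
Pdp1 peak 6, dm6 chr3L:7856566-7856666, reverse strand: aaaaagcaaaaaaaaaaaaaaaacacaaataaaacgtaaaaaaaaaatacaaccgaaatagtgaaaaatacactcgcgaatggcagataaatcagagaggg
cry peak 1, dm6 chr3R:19211850-19211950, forward strand: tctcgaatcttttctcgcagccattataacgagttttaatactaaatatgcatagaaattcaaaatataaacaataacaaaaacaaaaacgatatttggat
cwo upstream summit of the ranked list, dm6 chr3R:10387084-10387184, forward strand: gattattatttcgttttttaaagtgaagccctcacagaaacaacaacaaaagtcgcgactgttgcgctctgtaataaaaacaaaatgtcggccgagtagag

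A map drawn from all replicates together can hold peaks that single replicates lack, so each peak was looked up in the lists of the replicates. Of the 39 clock gene peaks, 11 (28.2%, exact 95% interval 15.0 to 44.9) were overlapped in the thresholded lists of all 3 replicates, 7 in 2, 10 in 1 and 11 in none. In the whole conservative list 43.8% were overlapped in all 3 and 16.4% in none. The interval treats the 39 peaks as separate draws. They are not, since 30 of them are at vri and Pdp1 and 5 overlap a stronger peak (12.8%, against 7.4% of the list). It therefore does not measure the difference from the list. The clock gene peaks were of moderate strength, with a median signal of 112 against 137 over the list, and 14 of the 39 reached the list median. The supported peaks were the stronger ones: the 11 found in all 3 replicates had a median of 217, while the 11 found in none had a median of 69.6. Over the list these medians were 252 and 77.9. The series list was made from the alignments of the same replicates, so the support is not independent of it.

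**Figure D2:**
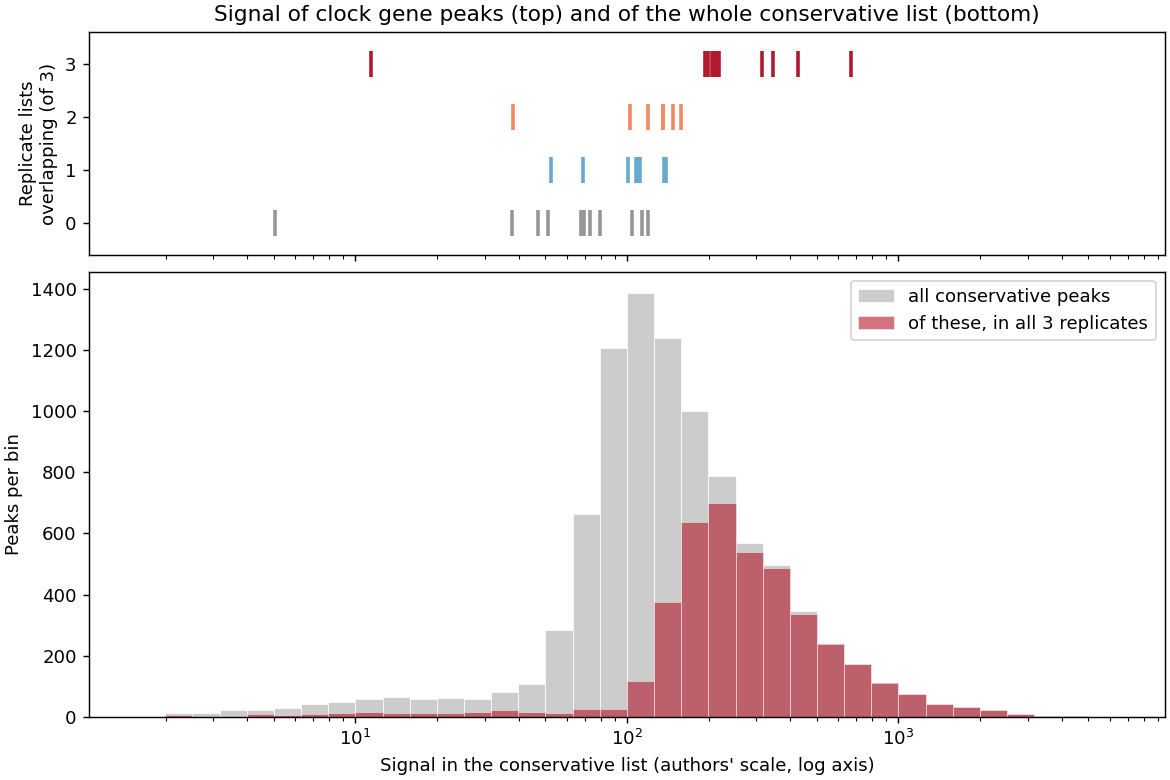
The upper panel places each of the 39 clock gene peaks by its signal (x axis, log scale) and by the number of replicate lists that overlap it (y axis), and the lower panel gives the number of conservative peaks per bin of signal, with the part found in all 3 replicates in red. With 1 exception at 11.4, the clock gene peaks found in all 3 replicates have signals of 194 or more, and no clock gene peak reaches 1000.

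At the level of genes, 6 of 8 clock genes had a conservative peak, against 55.4% of all protein-coding genes. A peak within 1000 bp of an annotated transcription start site (TSS), called a promoter peak here, was present at 4 of 8 (tim, vri, Pdp1 and cry), against 27.2%. At least 1 peak found in all 3 replicates was present at 3 of 8 (vri, Pdp1 and cry), against 37.0%. Nothing is read from these differences with 8 genes, whose lengths also differ: the Pdp1 gene spans 55.9 kb and the cyc gene 2.17 kb. The windows of the 8 genes together held 1.86 peaks per 10 kb, and those of the 6 genes other than vri and Pdp1 held 0.806, against 0.845 over the windows of all protein-coding genes together.

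The peak counts of vri and Pdp1, the highest of the 8 genes, were in the upper part of the range also among long genes. Of the 12 peaks at vri, 8 were nearest to a TSS of vri, and of the 18 at Pdp1, 13 were nearest to one of Pdp1. At each of these genes, 2 peaks overlap a stronger one. Among all protein-coding genes, 103 (0.739%) had 12 or more peaks, as vri did, and 33 (0.237%) had 18 or more, as Pdp1 did. Among the 911 genes with a window at least as long as that of vri (32.3 kb), 96 (10.5%) had as many peaks. Among the 261 genes with a window at least as long as that of Pdp1 (65.9 kb), 31 (11.9%) had as many. Other genes of like length held more peaks, as the plot of peaks against window length shows.

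**Figure D3:**
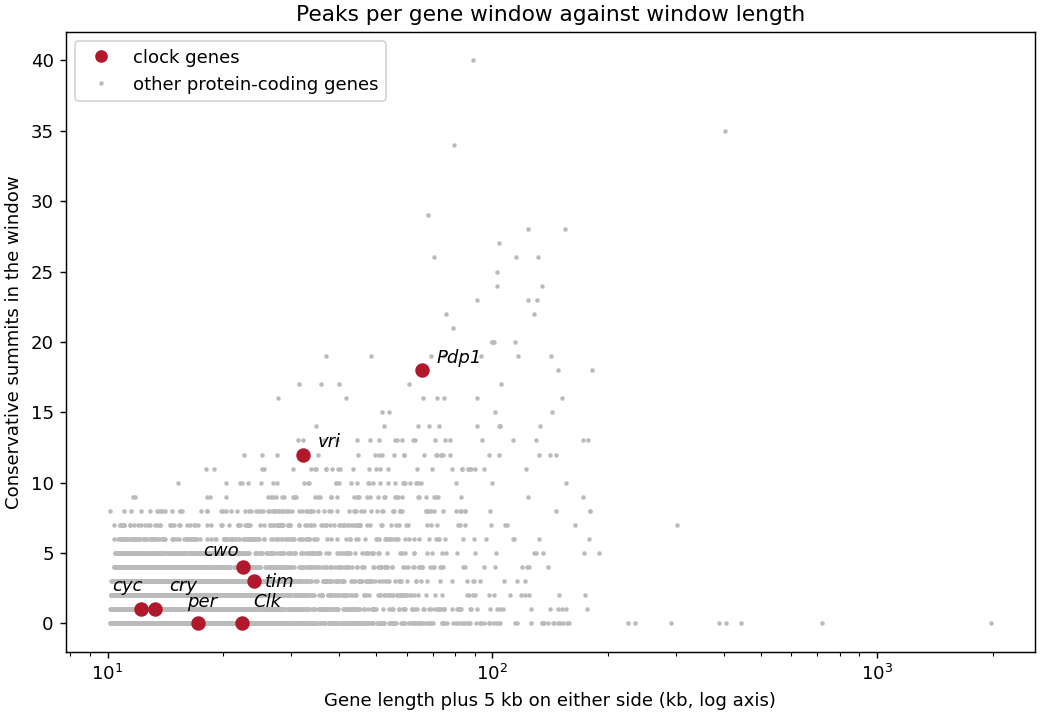
Each point is 1 protein-coding gene, with the length of its window in kb on the x axis (log scale) and the number of conservative summits in the window on the y axis, and red points are the 8 clock genes. Pdp1 (18 peaks) and vri (12 peaks) stand high in the cloud, and per and Clk lie at 0.

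The vri gene (FBgn0016076, 2L 5288944 to 5311223, forward strand) encodes a basic leucine zipper repressor, and has 3 annotated TSSs. The long first intron of the transcript vri-RE, which starts farthest upstream, held both of its strongest peaks. Peak 3 (2L 5293277 to 5293451, signal 425, rank 945 of the list) had its summit 4428 bp downstream of that TSS. The replicates' own signals there were 121, 128 and 152, and their summits lay 5 to 14 bp from the shared one. Peak 2, 3835 bp downstream of the same TSS, had a signal of 218 and replicate signals of 67.8, 72.2 and 86.6. Both peaks thus stood in all 3 replicates, with peak 3 above peak 2 in each.

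At the TSS of vri-RC, 10.7 kb into the gene, the summit of peak 7 lay 225 bp upstream, with a signal of 199. Its replicate signals were 61.5, 71.5 and 50.9, and it was the only peak within 1000 bp of a vri TSS that all 3 replicates held. The TSS shared by vri-RA, vri-RD and vri-RF, 16.7 kb into the gene, had 2 overlapping peaks at 84 bp upstream (signal 112) and 118 bp downstream (signal 52.3), both overlapped in replicate 3 alone. No conservative summit lay within 1000 bp of the TSS of vri-RE, and the nearest was 3441 bp upstream with a signal of 69.6. The start site with full support was thus the middle one of the gene.

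None of the other vri peaks was found in all 3 replicates. Peaks 4, 5 and 6 (signals 119, 119 and 38.2) lay in the same intron, 1001, 487 and 227 bp downstream of the TSS of the long non-coding RNA gene lncRNA:CR45730, to which they were nearer than to any vri TSS. Peaks 5 and 6 overlap each other and met the same peaks in replicates 2 and 3, so their support is not separate. Peak 9, 2539 bp upstream of the vri-RA start site, had a signal of 136 and was found in replicates 2 and 3, with signals of 54.1 and 72.2. Replicate 1 held no peak there even in its ranked list. The remaining peaks, numbers 1, 8 and 12, had signals of 69.6, 67.9 and 137, and of these the last was found in replicate 2 and the others in none.

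The Pdp1 gene (FBgn0016694, 3L 7811458 to 7867369, reverse strand) encodes a basic leucine zipper activator related to VRI in its DNA-binding domain, and has 4 annotated TSSs and 13 transcripts. Of its 18 peaks, 13 lay in the gene body. Peak 4 (3L 7863798 to 7863949, signal 345, rank 1340) lay in the first intron of Pdp1-RF and Pdp1-RO, 3500 bp downstream of their TSS, the most upstream of the gene. Its replicate signals were 151, 132 and 84.2, with summits at most 4 bp from the shared one. Among the clock gene peaks found in all 3 replicates it stood high in replicates 1 and 2 and in the middle in replicate 3.

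Peak 6 (3L 7856525 to 7856724, signal 313, rank 1579) lay in the same intron, 1068 bp upstream of the TSS used by 7 of the 13 transcripts. Its replicate signals were 61.6, 96.3 and 150.5, below peak 4 in replicates 1 and 2 and above it in replicate 3. Further peaks of the gene body, 3 in number, were found in all 3 replicates. Peak 15 (signal 211) lay 1089 bp downstream of the TSS of Pdp1-RC and Pdp1-RL, in a 5′ untranslated exon of Pdp1-RC. Peak 10 (signal 206) lay 4477 bp downstream of the TSS of the 7 transcripts, and peak 11 (signal 194) 8388 bp upstream of that of Pdp1-RD and Pdp1-RJ. Peak 3, with a signal of 11.4, overlaps peak 4 and met the same replicate peaks, so its support adds nothing to that of peak 4.

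The start sites of Pdp1 themselves carried weaker peaks. Summits lay 173 bp upstream of the TSS of Pdp1-RC (signal 114), 607 bp upstream of that of Pdp1-RD (signal 68.6) and 432 bp downstream of that of the 7 transcripts (signal 51.3), with a weaker overlapping peak at 671 bp (signal 37.8). Of these, the one of Pdp1-RD was overlapped in replicate 3 and the others in no replicate list. At the most upstream TSS the nearest summit was 1716 bp upstream and lay 43 bp downstream of the TSS of the neighbouring gene CG32365 (signal 111, found in replicate 3). The other Pdp1 peaks, numbers 1, 5, 9, 12, 16 and 18, had signals of 46.9 to 136, and none of them was found in all 3 replicates. Over all 8 genes, 8 of 16 annotated TSSs had a conservative summit within 1000 bp, and 2 had one found in all 3 replicates, those of vri-RC and cry. The shares over all annotated TSSs are not given here, so nothing is read from these counts.

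The strongest peak in any clock gene window lay beyond the end of Pdp1. It was at 3L 7809585 to 7809865, with a signal of 666 (rank 418) and replicate signals of 169, 209 and 245. Its summit was 79 bp downstream of the TSS of CG32369, a neighbouring gene, and 18.3 kb from the nearest Pdp1 TSS. It is counted at Pdp1 because the rule takes summits within 5 kb of a gene end. Of the 39 peaks, 27 were nearest to a TSS of their own clock gene.

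**Figure D4:**
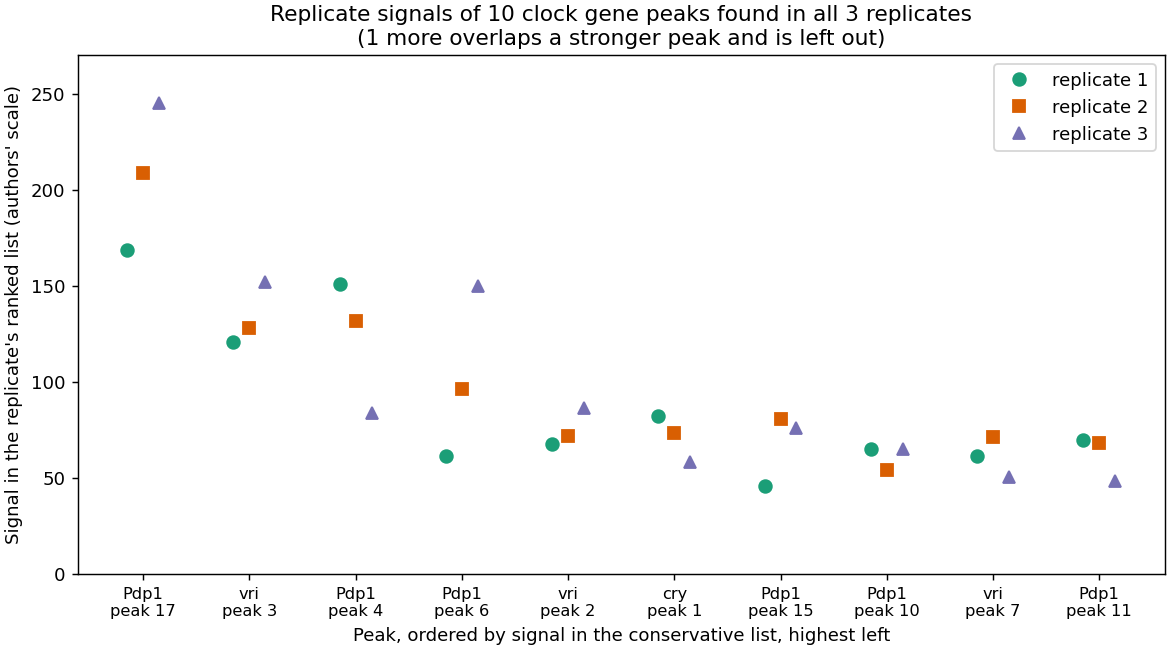
For 10 clock gene peaks found in all 3 replicates, the y axis gives the authors' signal in the ranked list of each replicate (circles replicate 1, squares replicate 2, triangles replicate 3), with peaks ordered on the x axis by their signal in the conservative list. Pdp1 peak 17, at the promoter of CG32369, is the highest in each replicate, and Pdp1 peak 4 lies above Pdp1 peak 6 in replicates 1 and 2 and below it in replicate 3.

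The order of these 10 peaks was compared within each replicate, since the scales of the lists differ. The peak at CG32369 was first in all 3 replicates, and vri peak 3 held places 3, 3 and 2 in replicates 1, 2 and 3. Pdp1 peak 4 held places 2, 2 and 5. The widest spread was 5 places and was shared by Pdp1 peaks 6, 11 and 15. Peak 6 held places 8, 4 and 3, peak 15 places 10, 5 and 6, and peak 11 places 5, 9 and 10. The lower 6 peaks of the series list stood in another order in each replicate.

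The cry gene (FBgn0025680, 3R 19212154 to 19215442, forward strand), which encodes the cryptochrome photoreceptor, had a single peak at its promoter. The peak spans 3R 19211802 to 19211976, with the summit 254 bp upstream of the only TSS, a signal of 217 and rank 2598. Replicate signals were 82.4, 73.5 and 58.7, and replicate summits lay 33 to 44 bp from the shared one. No ranked peak of the series other than this one lay within 5 kb of cry. It was the only clock gene whose whole set of peaks was found in all 3 replicates.

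The tim gene (FBgn0014396, 2L 3493986 to 3508119, reverse strand) encodes the light-sensitive partner of PER. Its 3 TSSs lie within 0.901 kb of each other. Peak 1 (2L 3506845 to 3507204, signal 159, rank 3909) lay in the first intron, 193 bp downstream of the TSS used by 6 of the 10 transcripts. The nearest replicate peaks had signals of 56.7, 33.2 and 37.4, of which only that of replicate 1 passed its threshold, and the overlap in replicate 3 came from another, weaker peak beside it. The other 2 peaks lay beyond the end of the gene: one 13 bp upstream of the TSS of CG15414 (signal 100.9), and one between genes (signal 139.6), each overlapped in 1 replicate.

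The per gene (FBgn0003068, X 2685580 to 2692780, forward strand) encodes the repressor PER and had no conservative peak. Among the 2529 protein-coding genes with a window at least as long (17.2 kb), 626 (24.8%) had none. The nearest conservative summit lay 11.1 kb beyond the end of per, at the start of Ugalt, and was the strongest of the whole list, with a signal of 3996. Of the other thresholded series lists, only that of 11723 peaks held a peak in the per window. Its summit lay beyond the gene end, 9336 bp downstream of the TSS, with a signal of 63.3. The ranked series list held a summit 25 bp upstream of the per TSS, with a signal of 45.2. Its score, a whole number made from the IDR, was 505, and the lowest score in the conservative list was 830. In the ranked lists of the replicates, the strongest summits within 1000 bp of this TSS had signals of 23.0, 18.8 and 24.9. These summits lay 304, 51 and 446 bp upstream, so those of replicates 1 and 3 are not at the site of the series list. Peaks of the ranked series list cover 19.0% of the chromosomes used, and a ranked peak near a TSS alone says little.

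The Clk gene (FBgn0023076, 3L 7763233 to 7775603, reverse strand) encodes the activator CLK. It had no peak in the conservative list or in any other thresholded list of the series. Of the 1627 genes with a window at least as long (22.4 kb), 377 (23.2%) had no conservative peak. The nearest conservative summit was 14.7 kb upstream, with a signal of 85.8 and support in 1 replicate. The ranked series list held 2 summits in the window, with a top signal of 21.5 against a median of 26.3 over that list. The ranked lists of replicates 1 and 2 held 6 and 3 summits, with top signals of 18.5 and 18.1, and that of replicate 3 held 0. Its top signal in the ranked series list was the lowest of the 8 genes.

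The cyc gene (FBgn0023094, 3L 19813770 to 19815938, reverse strand) encodes the partner of CLK. Its single peak (3L 19817800 to 19818159, signal 102) lay 2042 bp upstream of the cyc TSS but 13 bp upstream of that of Fibp, and was overlapped in replicates 1 and 3. A second site lay inside cyc, 401 bp downstream of its TSS, with a signal of 86.7 in the ranked series list. It was in 2 of the other 3 thresholded lists of the series. With either of these lists, cyc had a promoter peak, so its absence here is a matter of the list used. In the strings of 50 bases upstream of cyc, 11.0% of those in the 5 kb occurred more than once in the chromosomes used.

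The cwo gene (FBgn0259938, 3R 10388258 to 10400752, forward strand) encodes the E-box repressor CWO and has 1 TSS. All 4 of its conservative peaks lay in the first intron, 1844 to 5677 bp downstream of the TSS, with signals of 79.5, 5.05, 73.3 and 148. The last was overlapped in replicates 1 and 2 and the other 3 in no replicate. The peak with a signal of 5.05 overlaps the one of 79.5. Both met the same ranked peaks in replicates 2 and 3, so they are not separate sites. The count depends on the list: the thresholded series lists of 8250, 11723 and 8638 peaks held 1, 2 and 1 of these 4 peaks and no other at cwo. The ranked series list, from which the conservative list was drawn, held 4 more summits with scores above the threshold. They lay 1124 bp upstream (signal 250.4), 42 bp downstream (signal 129), 1081 bp downstream (signal 106) and 1294 bp downstream (signal 3.41) of the TSS. The upstream summit was nearer to another gene, 251 bp downstream of the TSS of lncRNA:CR44938. None of the 7 thresholded lists held a peak overlapping any of these 4 summits. At the upstream summit the ranked lists of the replicates gave signals of 43.7, 74.9 and 132, and at the summit 42 bp downstream 15.2, 36.8 and 73.2. The scores were 629, 1000 and 1000 at the upstream summit and 64, 915 and 1000 at the other, so replicate 1 was the lowest at both. A cwo promoter peak was thus in the ranked lists and in none of the thresholded ones, and the upstream site had the higher signal in each replicate.

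Per the deposited descriptions, the thresholded lists drew on 1 further source file, whose content was not analysed here, and its part in the missing cwo peaks was not tested. In the series as a whole, 212 of 9581 ranked peaks (2.21%) with a score at or above 830 were missing from the conservative list. The sequence upstream of cwo is itself duplicated in the reference: 92.0% of the strings of 50 bases in the 5 kb upstream occurred more than once. This share was 0 for the upstream 5 kb of 6 other clock genes and 11.0% for cyc. A stretch of 1122 bp at 3R 10387143 to 10388264, which ends 6 bp beyond the cwo TSS, recurs without a mismatch 3610 bp further upstream. Both copies hold an E-box in the same surroundings, shown here in capitals.
cwo left copy, dm6 chr3R:10383702-10383731, forward strand: tttgtcacgtttCACGTGttttattgtatg
cwo right copy, dm6 chr3R:10387312-10387341, forward strand: tttgtcacgtttCACGTGttttattgtatg
In the upstream peak 84.6% of the strings occurred more than once, in the peak at the TSS 30.9%, and in the peak 1081 bp downstream 0. Reads from sequence in several copies cannot be placed on 1 copy, and the part of this in the missing peaks was not tested.

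**Figure D5:**
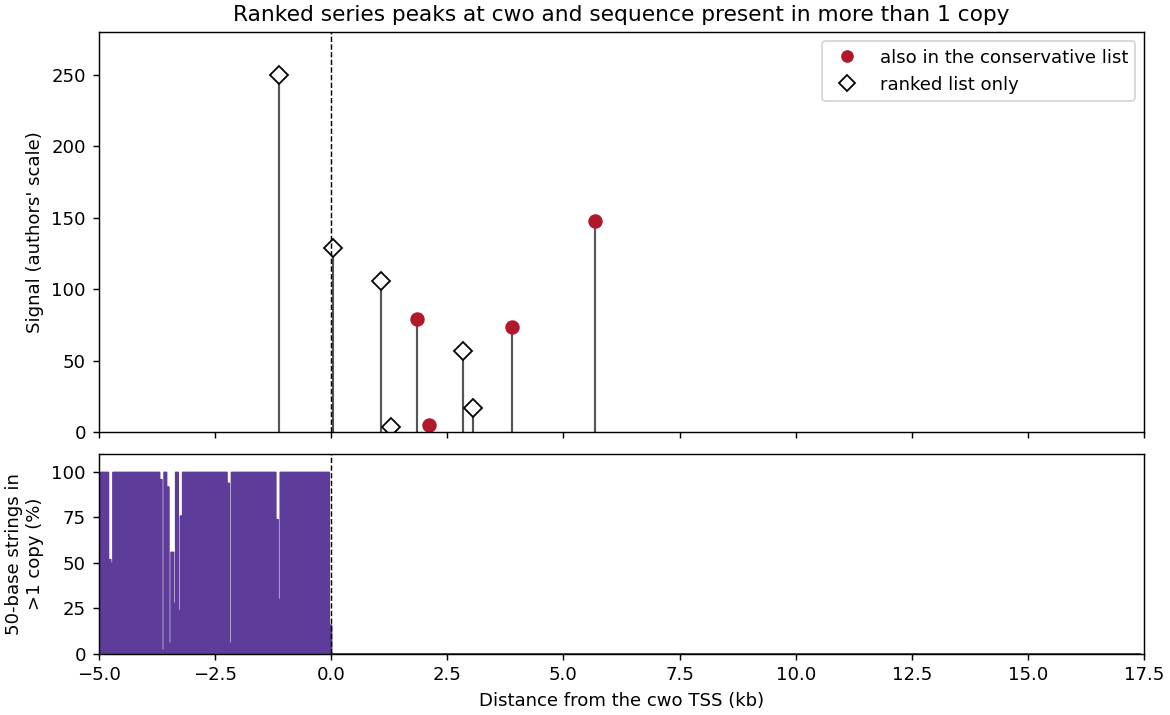
The upper panel gives the signal of every peak of the ranked series list in the cwo window against distance from the TSS in kb, with red circles for peaks also in the conservative list and open diamonds for the rest. The lower panel gives, per 50 bp, the percentage of strings of 50 bases that occur more than once in the chromosomes used. The duplicated sequence ends at the TSS, and 2 of the 3 open diamonds of highest signal touch it.

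The position of all summits relative to annotated features was next compared with the list. Of the 39 clock gene summits, 20 (51.3%) lay in introns and 13 (33.3%) within 500 bp of a TSS of any gene. A further 3 (7.69%) lay in 5′ untranslated exons, all at Pdp1, and 3 (7.69%) between genes. In the whole list 44.6% lay in introns and 38.2% within 500 bp of a TSS. The list held 1.0% in 5′ untranslated exons and 14% between genes. With 3 summits in each of these classes, nothing is read from their shares. None of the clock gene summits lay in a coding exon, which held 0.523% of the list. The GC content of the window of 50 bases on either side of the summit had a median of 36.6% at clock genes and 35.6% over the list.

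E-boxes were counted because CLK, CYC and CWO bind them. The string CACGTG reads the same on both strands and is not part of any other motif searched. It occurred 52 times in the windows of the 8 genes, or 2.48 times per 10 kb, against 1.23 times per 10 kb over the chromosomes used. The windows of cwo (15, including duplicated ones), Pdp1 (14) and per (11) held most of them. Within 50 bases of the summit, 1 of 39 clock gene peaks held it (2.56%), against 0.865% of the list. Over whole peaks, 4 of the 52 E-boxes (7.69%) lay inside a conservative peak, and the peaks covered 5.96% of the windows. Over the chromosomes used these shares were 1.98% and 2.09%. The elements inside conservative peaks are shown with 12 bases on either side and the E-box in capitals. Also shown is the one between the tim start sites, in a ranked peak with a signal of 91.8. The conservative list lacks that peak, while the thresholded series lists of 11723 and 8638 peaks hold it.
E-box in Pdp1 peak 5, dm6 chr3L:7859994-7860023, reverse strand: tgttgctgccgtCACGTGgtatcttcttct
E-box at the edge of Pdp1 peak 6, dm6 chr3L:7856707-7856736, reverse strand: atgaaatcaactCACGTGagcgctgctgcc
E-box in Pdp1 peak 13, dm6 chr3L:7833817-7833846, reverse strand: gtgtgtccgcaaCACGTGcttagaactgtg
E-box in cwo peak 2, dm6 chr3R:10390440-10390469, forward strand: tagggtgctgttCACGTGctcgggtggcct
E-box between the tim start sites, dm6 chr2L:3507405-3507434, reverse strand: acgttgtgattaCACGTGagccgatttccc

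The element in Pdp1 peak 5 lay 24 bp from the summit, but that peak (signal 104) was overlapped in no replicate list. The element in Pdp1 peak 6, the only one in a peak found in all 3 replicates, lay at the outer edge of the peak, away from the summit. The element at cwo was in a peak with a signal of 5.05. None of the 11 E-boxes at per lay in a conservative peak, and 6 lay in peaks of the ranked list, which covers 23.9% of the 8 windows together.

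The other motifs were rare at the clock gene summits. CAGCTG, another E-box, was in 1 of 39 (2.56%, against 3.47% of the list). AGGTCA, the core element bound by many nuclear receptors, was in 1 of 39 (2.56%, against 1.76%). TATTTAT was in 4 (10.3%, against 9.55%) and the repeat GAGAGAG in 2 (5.13%, against 3.71%), all counted on both strands. TTACGTAA and TTATGTAA, of the kind bound by VRI and PDP1, were in none, and neither were TAGAGCA and TATCGATA, which 0.117% to 0.833% of the list held. A match is no evidence that a factor binds there, and no match says only that these letters are not in the window.

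Outside the core, 38 further genes of the clock pathway were examined by their roles. Of these, 30 (78.9%) had a conservative peak, 18 (47.4%) had a promoter peak and 11 had a promoter peak found in all 3 replicates. Over all protein-coding genes, 55.4% had a conservative peak and 27.2% a promoter peak, and gene length, which differs, was not matched. Their share with a promoter peak found in all 3 replicates is not given here. Nothing is read from the counts of such peaks. Of the 9 kinase and phosphatase genes, which set the stability of PER and TIM, 4 had a promoter peak (44.4%, against 27.2%). It was found in all 3 replicates at sgg, the kinase Shaggy (signal 739, replicate signals 253, 228 and 206), at mts, a phosphatase subunit (signal 228), and at tws, a regulatory subunit of the same phosphatase (signal 187). The mts summit was nearer to the TSS of Rack1.

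Of the 6 regulators of transcription, 5 had a promoter peak (83.3%, against 27.2% of all protein-coding genes), and 4 of these were found in all 3 replicates. With 6 genes of unmatched length, nothing is read from these counts. The highest of the 38 genes was at brm, the ATPase of a chromatin remodelling complex, 133 bp upstream of its TSS, with a signal of 1339 and replicate signals of 532, 443 and 364. It was followed in this group by nej, the histone acetyltransferase CBP (signal 844, nearest to lncRNA:CR42657), Eip75B, a nuclear receptor of the ecdysone response (signal 416), and Mef2, a muscle and neuronal transcription factor (signal 206). In the other groups such peaks were at wake, an output gene of sleep timing (signal 472), pAbp, the poly(A) binding protein (signal 445), qsm, a gene of light input (signal 344), and norpA, the phospholipase C of phototransduction (signal 279.6).

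Of the 6 protein turnover genes, 5 (83.3%, against 55.4% of all genes) had a peak in their window. At a promoter 1 had a peak (16.7%, against 27.2%), and that promoter peak was not found in all 3 replicates. Of the 9 output genes, 5 (55.6%, near the 55.4% of all genes) had a peak and 2 (22.2%, against 27.2%) a promoter peak. The 8 pathway genes without any conservative peak were the output genes Pdf, Dh31, Dh44 and to, the kinase or phosphatase genes CkIIalpha and Pp1-87B, the nuclear receptor gene Hr51 and the turnover gene slmb.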

How the data were processed

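ChIP-seq peak lists of 3 biological replicates were used, on dm6 per the labels. Which aligner and peak caller were used is not given in the sources used here. Deposited signal values are the authors' peak strength. A peak held by several series lists had the same value in each where this was compared, and the scale differs in the lists of the replicates. The deposited score is a whole number made by the authors from the IDR, and the deposited −log10 q-value was read but not used in a result. Lists are ranked (all peaks) or thresholded on the IDR, and the authors call 1 thresholded series list conservative. No read counts were used, so depth is unknown, and intervals cover counting error only. In the ranked series lists, 32 further columns were left out, since nothing ties them to a replicate.

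Summits (column 2 plus column 10) on 6 chromosomes were placed against Ensembl release 115, leaving out 1 of 9370 conservative peaks. Replicate support is an overlap of at least 1 bp with a thresholded list. Replicate signals come from the ranked peak that overlaps the series peak and has the nearest summit. Sequences are from the RefSeq copy of the same assembly. The genes named are the 8 members, the gene of the nearest TSS for their peaks, and the pathway genes with a promoter peak found in all 3 replicates; those without any peak were named afterwards. The members, gene lists and motifs were chosen with earlier results of these data known. Overlap counting was tested on simulated data. The work used Python 3.11.15 with pandas 2.3.3, NumPy 2.4.6 and SciPy 1.17.1, and matplotlib 3.10.9 for plots. Alternatives changed the peak list, signal, replicates, distances and window.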

Additional observations from a re-analysis of the deposited data

How the results depend on the processing

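No comparison between groups was made. Of 99 values under alternative settings, 80 stayed within 1.5 times the main value or, for medians, within the spread between replicates, and 19 moved. Keeping peaks with a signal at or above the list median left 14 of the 39 peaks, with a median signal of 209 and 0 summits with CACGTG. In the list of 8638 peaks the median was 137. The count with CACGTG was 3 in the list of 11723 peaks, 2 with 100 bases on either side of the summit and 4 with 150.

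Leaving out a replicate was done by keeping peaks overlapped in both other replicate lists, a stricter choice than the main one by construction. Without replicates 1, 2 and 3 in turn there were 15, 13 and 12 peaks, at 3, 5 and 4 clock genes, with promoter peaks at 2, 3 and 2 genes. Medians ran from 206 to 214, and 0 peaks with CACGTG remained in each case. The number of clock genes with a peak found in all 3 replicates was 3 under every alternative computed for it, which leaving out a replicate could not change, since peaks found in all 3 are always kept. With the ranked list at the same score, chosen after seeing the data, there were 43 peaks and 5 genes with a promoter peak, cwo among them. No paired analysis was possible because there was 1 group. Read depth is unknown, so a missing peak is not absence of binding. The control experiment was not analysed here.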

Other observations

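The number of peaks at the second loop depended on the list. At vri, 7, 9 and 7 of the 12 conservative peaks were in the thresholded series lists of 8250, 11723 and 8638 peaks, which held 11, 13 and 7 peaks there. At Pdp1, 12, 13 and 14 of the 18 were, and the lists held 17, 24 and 15. Some peaks of these lists that the conservative one lacks lay at start sites. At vri, a summit lay 270 bp downstream of the TSS of vri-RE, with a signal of 83.7, in the lists of 8250 and 11723 peaks. At Pdp1, a summit lay 434 bp upstream of the TSS of the 7 transcripts (signal 117) in the list of 8250 peaks. Another lay 152 bp upstream of the TSS of Pdp1-RF and Pdp1-RO (signal 99.7) in the list of 11723 peaks. That summit fell on an E-box, shown here with the E-box in capitals.
E-box upstream of Pdp1-RF and Pdp1-RO, dm6 chr3L:7867506-7867535, reverse strand: gaagataaagacCACGTGattacattctgc
At tim, a summit 8 bp downstream of the TSS of tim-RO (signal 91.8) was in the lists of 11723 and 8638 peaks. The ranked series peak with this signal holds the E-box between the tim start sites shown above. The most upstream start sites of vri and Pdp1 had no promoter peak in the conservative list, and none in the list of 8638 peaks.

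In the ranked series list, 20 of the 52 E-boxes at the clock genes (38.5%) lay in a peak, while the peaks covered 23.9% of the windows. Over the chromosomes used, 23.0% of E-boxes lay in a ranked peak and the peaks covered 19.0%. All 4 E-boxes in the vri window were in a ranked peak, with signals of 58.1, 55.9, 55.9 and 4.47, and none was in a conservative one. At Pdp1 8 of 14 were in a ranked peak, at per 6 of 11, at tim 1 of 2 and at cwo 1 of 15, and at Clk, cyc and cry 0 of 2 each. Most peaks of the ranked list are below the authors' threshold.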
